A study of Mus musculus with 244 samples.

Results

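Single oocytes of primary follicles were compared with single oocytes of follicles on the way from the primordial to the primary stage, within the one library plate (plate 6) that holds both in number. The members were found by their sample titles and by the plate number in the deposited cell metadata, which gave 8 primary oocytes and 3 transitioning oocytes, 11 of the 244 samples of the series. The series holds 59 oocytes and 185 somatic cells of the mouse ovary on 6 plates, among them 20 primary and 19 transitioning oocytes, and plate 6 carries 25 cells. No other plate was summed with it, since the genes that have values differ between plates.

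Both groups came from outbred CD-1 mice that were 6 days old, and the labels give no treatment or allele for either. Ovaries of several animals, 8 to 12 ovaries in a collection, were pooled and dissociated, and follicles were sorted by eye. By the extraction protocol in the labels, primary follicles were stripped of their granulosa cells in the enzyme mix Accutase for 10 minutes and drawn up with pipettes of 30 micrometres, whereas transitioning follicles had 5 minutes and pipettes of 20 micrometres, so handling, as far as it differed, and stage cannot be told apart. Another description in the study gives the shorter time for primary follicles too. All 11 oocytes stood in 1 row of the plate, with the primary oocytes in columns 1 to 9 and the transitioning oocytes in columns 10 to 12, so the position of the well and the stage cannot be told apart either. Each sample is 1 cell and the labels name no animal, so a stage is 1 sample here: the cells are not replicates, the differences below have no replicate check, and no test between the stages or p-value is given. Intervals are 95% intervals of the counts alone.

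In the primordial follicle a small oocyte, arrested in meiotic prophase, is enclosed by flat pregranulosa cells. When the follicle is activated these become cuboidal granulosa cells, the oocyte begins to grow, and it builds up the egg coat glycoproteins of the zona pellucida, the growth factors GDF9 and BMP15 that signal to the granulosa cells, and a store of maternal RNAs. The transitioning follicle stands between the flat and the cuboidal state, and the primary follicle has a full cuboidal layer.

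The depth of the deposited counts was similar in the 2 stages and low in all cells. Estimated counts over the 16373 genes with values on the plate summed to 35696 to 139643 per primary oocyte (median 71006), against 65405, 58661 and 27564 in transitioning oocytes 17, 18 and 19, which are the replicate numbers of the labels. Pooled over cells, the stages had 606689 and 151629 counts. Primary oocytes had reads from 2529 to 3410 genes, and the transitioning oocytes from 2917, 2773 and 2490 genes. After every cell was thinned to 27567 counts, or kept whole where it had fewer, these became 2281 to 2439 genes in primary and 2457, 2317 and 2476 genes in transitioning oocytes. The metadata gave 804130 to 3111616 total reads and 3234 to 6768 genes detected per primary oocyte. For transitioning oocytes 17, 18 and 19 they gave 1561330, 1234878 and 634308 reads and 5090, 4349 and 2722 genes. These gene numbers were above those of the count table, and the reason was not tested. Levels are given as counts per 1000000 counts (CPM) of a cell or a pooled stage, a measure that does not correct for gene length. A single count was worth 7.16 to 28.01 CPM in primary oocytes and 15.3, 17.05 and 36.3 CPM in the transitioning oocytes.

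Of the 3 transitioning oocytes, 17 and 19 stood apart from the primary oocytes and from each other. Over 2041 genes with enough counts, the correlation of log2(CPM + 10) was 0.774 to 0.860 within the 28 pairs of primary oocytes, 0.670 to 0.830 between stages (24 pairs), and 0.669 to 0.721 among the 3 transitioning pairs. These are correlations across genes in libraries of 1 plate, given as a description. They were taken at full depth, so depth and likeness are not separated here. Oocyte 19 had the fewest counts of all cells compared, and the shallowest primary oocyte, 18, had the lowest median correlation among primary oocytes (0.786). The median correlation with the primary oocytes was 0.712 for transitioning oocyte 17 and 0.727 for oocyte 19, but 0.794 for oocyte 18, which lay within the range of 0.786 to 0.840 that primary oocytes had with each other.

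**Figure D1:**
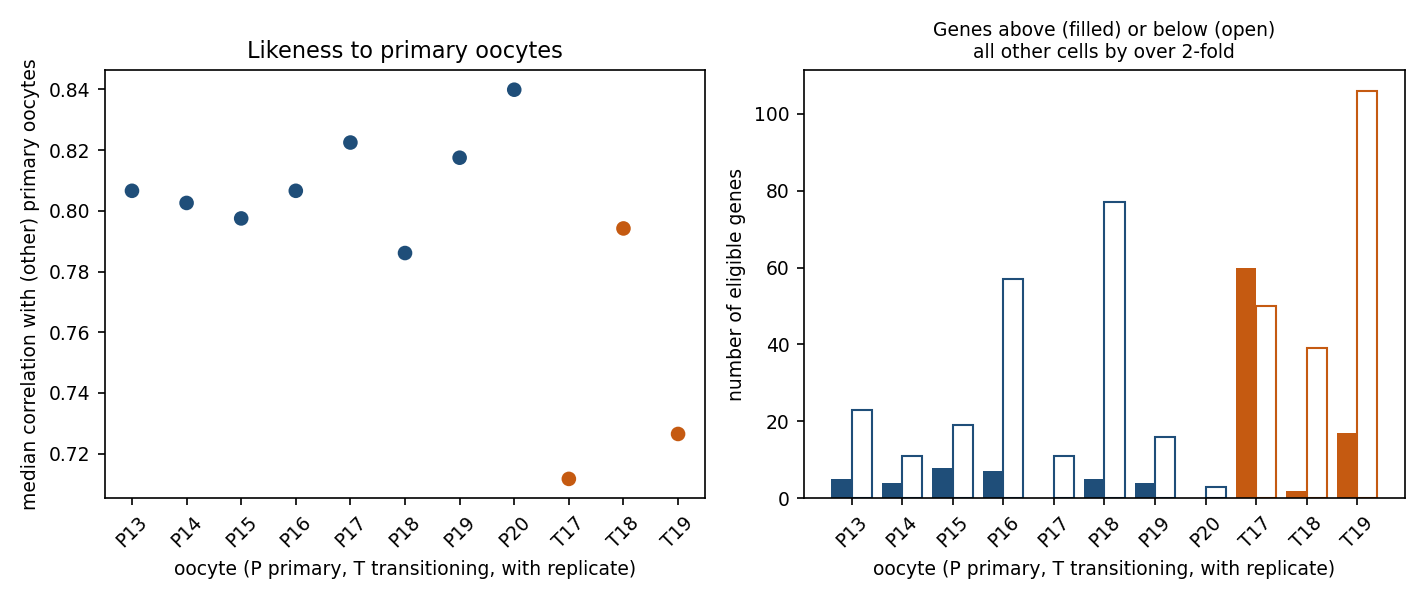
Left, median correlation of log2(CPM + 10) of each oocyte with the (other) primary oocytes over 2041 genes. Right, number of genes in which an oocyte was over 2-fold above (filled bars) or below (open bars) all other oocytes of the comparison: transitioning oocytes 17 and 19 have the lowest correlations, and oocyte 17 has 60 genes above all others, against 0 to 8 in a primary oocyte, and 50 below, against 3 to 77.

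The way in which these oocytes stood apart differed. Oocyte 17 was more than 2-fold above every other oocyte in 60 genes and below every other in 50, whereas oocyte 19, the shallowest cell, was above in 17 and below in 106, and oocyte 18 was above in 2 and below in 39. Primary oocytes were above all others in 0 to 8 genes and below all others in 3 to 77, so only the counts of 60 and 17 above and 106 below lay outside the primary range. These genes had to reach 50 CPM in a stage with reads in 50% of its cells. A gene high in 1 of 3 transitioning oocytes thus entered more easily than a gene high in 1 of 8 primary oocytes. This favours higher counts above for the transitioning oocytes. Among the genes in which oocyte 17 was highest was Ooep, an oocyte gene of the subcortical maternal complex, at 9265 CPM, against 2796 and 2358 CPM in the other transitioning oocytes and 2853 to 4054 CPM in primary oocytes. Oocyte 17 also had the highest share of ribosomal RNA reads, 17.4%, against 8.66% and 11.3% in the other transitioning oocytes and 6.66% to 13.3% in primary oocytes. Its mitochondrial share in the metadata was the lowest, 0.0947%, against 0.231% to 0.555% in primary oocytes. Oocyte 18 had 0.462%, and oocyte 19 had 0.745%, above all primary oocytes. Oocyte 17 supplied 43.1% of the pooled transitioning counts.

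Oocyte 19 carried transcripts of other ovarian cell types, and most genes given here were picked for their high values in it. The study had left out oocytes that scored high for somatic genes, so the deposited cells had been selected for low levels of them. Of the 21 somatic markers that the study used, 12 had values on the plate and 4 of these were at 0 in all 11 oocytes. Together they took 0% to 0.0301% of the counts of a primary oocyte, against 0.0107%, 0.00419% and 0.0508% in transitioning oocytes 17, 18 and 19. The 2 secondary oocytes of the plate had 0.0139% and 0.0431%. Oocyte 19 had 290.2 CPM of Inha, the inhibin alpha subunit of granulosa cells, 145 CPM of Foxl2, the granulosa transcription factor, and 72.6 CPM of Amh, anti-Müllerian hormone, while primary oocytes reached at most 123, 27.4 and 13.7 CPM of these genes. Each of these highest primary values was that of primary oocyte 17. In oocyte 19 a single count was worth 36.3 CPM, so its values rest on few reads. The direction was not shared by all markers: of the 4 with 5 CPM in a stage, 2 had a log2 ratio above 0 and 2 below. Aldh1a2, a retinoic acid enzyme, was at 0 to 70.9 CPM in primary oocytes (reads in 5 of 8) and at 45.9, 17.05 and 0 CPM in transitioning oocytes 17, 18 and 19. The log2 ratio of Inha was -2.0 (-3.28 to -0.72), and -0.71 without oocyte 19. Inha had reads in 3 of 8 primary and 2 of 3 transitioning oocytes, Foxl2 in 2 of 8 and 1 of 3, and Amh in 1 of 8 and 1 of 3. Of 20 markers of stroma, endothelium and blood, 15 had values and 13 of them were at 0 in all oocytes, and the exceptions were Col1a1 and Col1a2, the chains of type I collagen, with 36.3 CPM (a single count) and 145 CPM in oocyte 19. Neither was in another transitioning oocyte, and of the 8 primary oocytes 1 had a read of Col1a2 (7.16 CPM) and 0 had one of Col1a1. Jun, an immediate early gene that dissociation is known to induce, had 580.5 CPM in oocyte 19, 0 in the other transitioning oocytes and 0 to 28.01 CPM in primary oocytes, in which 3 of 8 had a read. What part these transcripts had in the values of oocyte 19 was not tested.

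The oocyte identity of all 11 cells was borne out by the markers. Gdf9 (chr11:53431023-53437904 in GENCODE M21 on GRCm38, as are all positions here), Zp2 (chr7:120126772-120145291) and Zp3 (chr5:135980099-135988624) had reads in 8 of 8 primary and 3 of 3 transitioning oocytes and were among the most abundant transcripts. Gdf9, the oocyte growth factor, was at 9346 to 17158 CPM in primary oocytes (median 13039), against 9984, 14456 and 16725 CPM in the transitioning oocytes, and the cells of the stages overlapped over their whole range. Its pooled log2 ratio of primary over transitioning was 0.09 (interval 0.02 to 0.16). Zp2, a zona pellucida glycoprotein that binds sperm, was at 29547 to 46039 CPM (median 36897) in primary and at 35288, 38169 and 37840 CPM in transitioning oocytes, a log2 ratio of 0.06 (0.02 to 0.10).

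Zp3, the zona glycoprotein that pairs with ZP2 in the coat filaments, was at 27528 to 33277 CPM (median 28957) in primary oocytes and at 46144, 31077 and 30765 CPM in the transitioning oocytes. Oocyte 17 lay above all primary oocytes, the other transitioning oocytes lay within their range, and the log2 ratio of -0.34 (-0.39 to -0.30) became -0.07 without oocyte 17. For Bmp15 (chrX:6314107-6320721), the partner of GDF9 and present in all 11 cells, primary oocytes had 2951 to 9130 CPM (median 5371) and the transitioning oocytes had 1040, 8319 and 4716 CPM. Here oocyte 17 was the lowest of all cells. The log2 ratio was 0.43 (0.31 to 0.55), and it was -0.23 without oocyte 17 and 1.52 without oocyte 18, so that its direction turned on which transitioning oocyte was counted. The 2 secondary oocytes of the same plate, from follicles with a further layer of granulosa cells, had 15422 and 14989 CPM of Bmp15, above all 11.

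**Figure D2:**
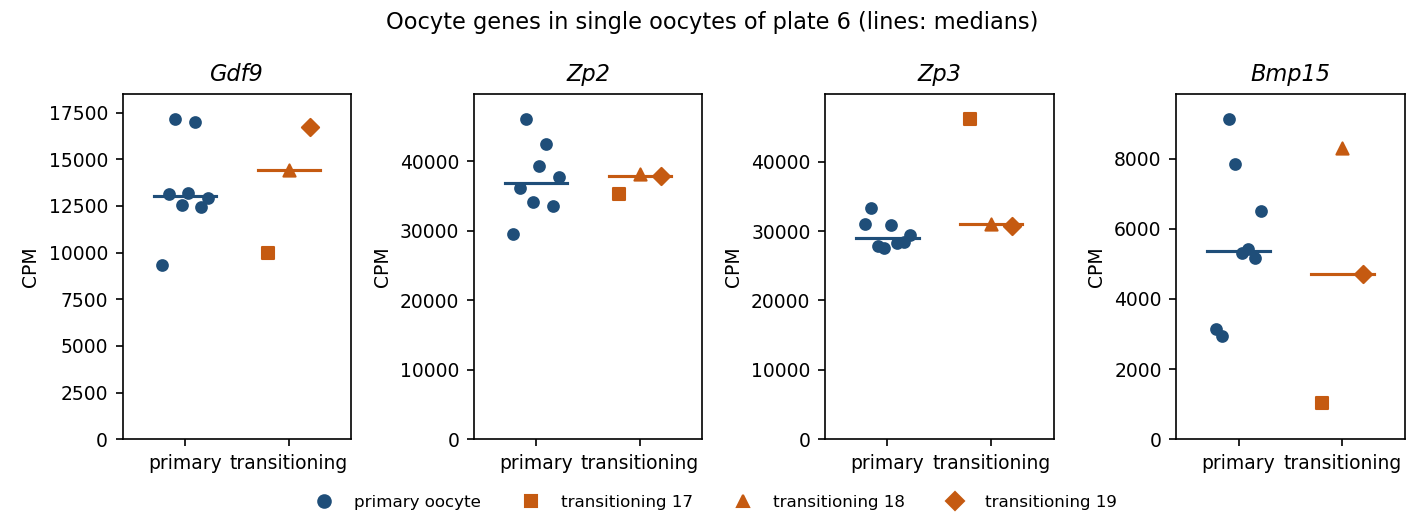
Levels of Gdf9, Zp2, Zp3 and Bmp15 in CPM in single oocytes, with 8 primary oocytes at the left and transitioning oocytes 17 (square), 18 (triangle) and 19 (diamond) at the right of each panel. Lines are medians, and the stages overlap except for oocyte 17, which is highest for Zp3 (46144 CPM) and lowest for Bmp15 (1040 CPM).

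Most genes were at similar pooled levels in the 2 stages. A gene was compared where its pooled level was at least 50 CPM in a stage (30.3 counts in the primary and 7.58 counts in the transitioning sum) with reads in at least 50% of the cells of that stage, which held for 2041 genes, of which 135 have names of clones. The log2 ratio of primary over transitioning had a median of -0.04 and quartiles of -0.44 and 0.37, and 1738 genes (85.2%) differed by less than 2-fold. At least 2-fold higher in primary oocytes were 128 genes (6.27%), and at least 2-fold lower were 175 genes (8.57%). Of all genes past 2-fold 42.2% were thus higher, a share that was 58.9% with scaling factors of the TMM method, which add 0.14 to every log2 ratio, and 58.2% with median-of-ratios factors. The counting interval excluded a ratio of 1 for 104 of the higher and 143 of the lower genes. A gene that entered only through the stage where it was high had to differ: 50 of the 128 and 67 of the 175 reached 50 CPM in both stages, as 1718 of all 2041 did.

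In most lower genes 1 cell gave over 50% of the pooled transitioning count. That cell was oocyte 17 in 117 of the 175 lower genes, oocyte 18 in 12 and oocyte 19 in 9. Over all genes oocytes 17, 18 and 19 supplied 43.1%, 38.7% and 18.2% of the transitioning counts, so oocyte 17 was near 50% from the start. No such count was made over all compared genes. Without oocyte 17 there were 226 higher and 132 lower genes, of which 83 and 57 were shared with the full comparison. Without oocyte 18 there were 240 and 368 genes (101 and 158 shared), and without oocyte 19 there were 188 and 200 (117 and 144 shared). Past 2-fold whichever transitioning oocyte was left out were 57 higher and 27 lower genes.

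Some of these 84 genes are named here after their values were seen. Fam177a, a gene of little known function, had reads in 7 of 8 primary oocytes (0 to 481 CPM, median 368) and in none of the 3 transitioning oocytes, and the secondary oocytes had 345 and 387 CPM. Set against a floor of 3 counts over the transitioning group, its log2 ratio was at least 3.80. Plate 1 had the opposite order, with 60.8 CPM in its primary sum and 98.6 CPM in its transitioning oocyte, a log2 ratio of -0.70 (-1.22 to -0.17). Csnk1g1, a casein kinase carried by all 11 oocytes, was at 187 to 397 CPM in primary oocytes (median 281), against 30.6, 119 and 218 CPM in transitioning oocytes, a log2 ratio of 1.63 (0.87 to 2.50). On the lower side, Mgat5, an N-glycan branching enzyme carried by all 11 as well, was at 47.5 to 279.8 CPM (median 109) in primary and 275, 307 and 254 CPM in transitioning oocytes, with a log2 ratio of -1.34 (-1.91 to -0.75). The ranges of single cells overlapped for Mgat5, by the highest primary oocyte.

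A stricter call asked that no single primary oocyte overlap any transitioning oocyte. With the 2-fold difference, 8 genes passed as higher (0.392%) and 8 as lower (0.392%), while without it 20 genes were higher in every primary oocyte (0.98%) and 9 were lower (0.441%). With 8 cells against 3, some of the 2041 genes can be free of overlap by chance, and how many was not tested. For 15 of the 16 genes the ratio of mean CPM was past 2-fold too, and these are described one by one. For the other, Mif, a cytokine carried by all 11 oocytes at 116 to 201 CPM in primary and 331, 239 and 327 CPM in transitioning oocytes, the ratio of pooled counts was -1.03 on the log2 scale and that of mean CPM -0.96.

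**Figure D3:**
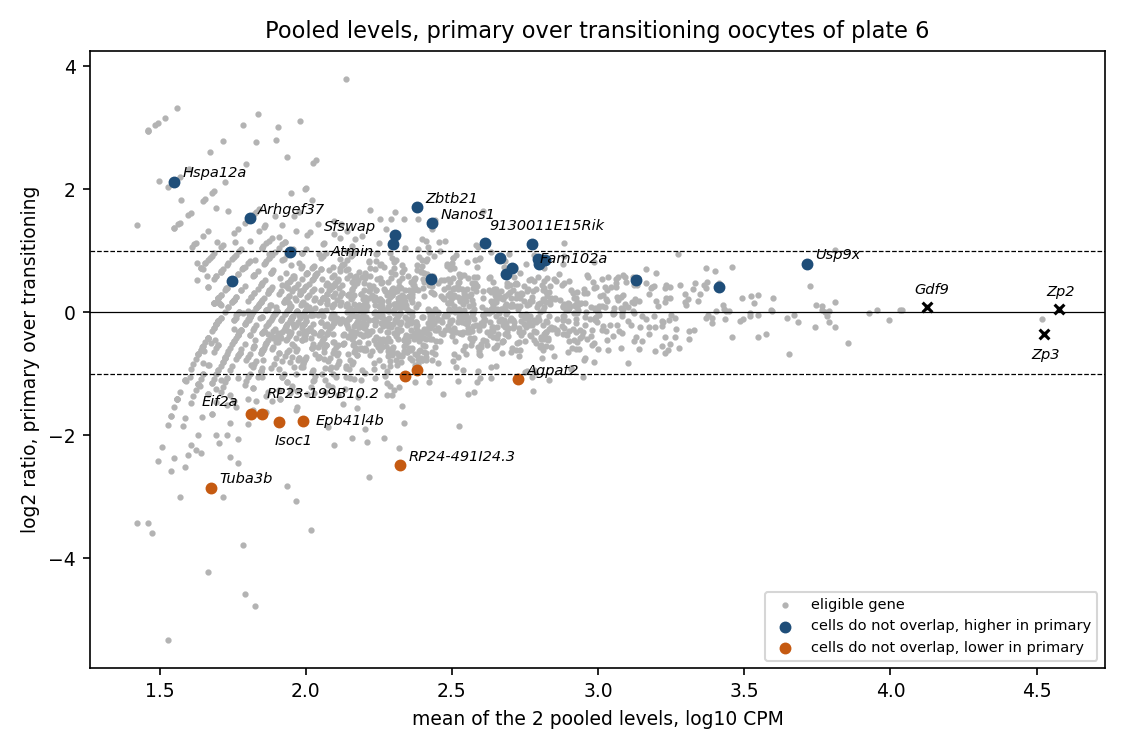
Log2 ratio of pooled CPM, primary over transitioning, against the mean of the 2 pooled levels (log10 CPM) for 2041 genes. Blue points are the 20 genes and orange points the 9 genes whose single oocytes do not overlap between the stages, dashed lines mark a 2-fold difference, and Gdf9, Zp2 and Zp3 (crosses) lie at 0.09, 0.06 and -0.34.

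Nanos1 (chr19:60755987-60759914), an RNA-binding protein that represses translation in germ cells, had reads in all 11 oocytes, with 238 to 629 CPM in primary oocytes (median 389) and 61.2, 205 and 218 CPM in transitioning oocytes. Its log2 ratio was 1.45 (0.82 to 2.15), and 0.93 without oocyte 17. The secondary oocytes had 500.2 and 403 CPM, within the primary range.

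Zbtb21 (chr16:97943357-97962622), a BTB domain zinc finger protein, was likewise carried by all 11 oocytes, at 190.2 to 574 CPM in primary (median 345) and at 76.4, 136 and 145 CPM in transitioning oocytes, a log2 ratio of 1.72 (1.01 to 2.52). Sfswap (chr5:129501221-129571384), a regulator of splicing, was in all 11 at 190.2 to 336 CPM (median 297) in primary and 153, 102 and 72.6 CPM in transitioning oocytes, with a log2 ratio of 1.26 (0.56 to 2.05). In both genes the lowest primary oocyte stood close above the highest transitioning one.

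Atmin (chr8:116943393-116960445), a transcription factor that interacts with the ATM kinase, had reads in all 11 oocytes, with 148 to 411 CPM (median 287) in primary and 138, 119 and 109 CPM in transitioning oocytes, a log2 ratio of 1.12 (0.43 to 1.89). The best covered of the 8 was Fam102a (chr2:32535332-32569756), in all 11 at 532 to 1545 CPM (median 671) in primary and 459, 324 and 290.2 CPM in transitioning oocytes, with a log2 ratio of 1.11 (0.71 to 1.53). In the secondary oocytes Fam102a was below all 11, at 278 and 96.8 CPM.

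The other 3 genes rested on fewer counts or have no annotated function here. Hspa12a (chr19:58795750-58943654), a distant member of the Hsp70 family, was carried by 8 of 8 primary and 2 of 3 transitioning oocytes, at 21.5 to 126 CPM (median 54.1) in primary and 15.3, 17.05 and 0 CPM in transitioning oocytes. Its log2 ratio of 2.13 (0.17 to 5.23) set 35 counts against 2. Arhgef37 (chr18:61491657-61536594) was in all 11 at 56.7 to 196 CPM (median 89.6) in primary and 30.6, 34.1 and 36.3 CPM in transitioning oocytes, with a log2 ratio of 1.54 (0.23 to 3.21) from 58 counts against 5. After the cells were thinned to 1 depth, the log2 ratio of Hspa12a was a bound of at least 0.46, set by the floor of 3 counts. That of Arhgef37 was 0.49. The clone-named gene 9130011E15Rik, in all 11 oocytes, was at 336 to 790.0 CPM (median 549) in primary and 245, 273 and 254 CPM in transitioning oocytes, a log2 ratio of 1.14 (0.66 to 1.65).

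Among the lower genes without overlap that are described one by one, Agpat2 had the most counts. Agpat2 (chr2:26593057-26604417), an acyltransferase on the path to phospholipids and triglycerides, had reads in all 11 oocytes, with 196 to 504 CPM (median 352) in primary oocytes and 841, 614 and 689 CPM in transitioning oocytes. The log2 ratio was -1.08 (-1.42 to -0.73), and -0.90 without oocyte 17. The secondary oocytes had 264 and 371 CPM, within the primary range.

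The other lower genes were detected in some primary oocytes only. Isoc1 (chr18:58659466-58680368), a protein with an isochorismatase domain, was carried by 6 of 8 primary and 3 of 3 transitioning oocytes, at 0 to 69.9 CPM (median 28.3) in primary and 138, 102 and 145 CPM in transitioning oocytes, with a log2 ratio of -1.79 (-2.74 to -0.82). Epb41l4b (chr4:56991972-57143437), a FERM domain protein of the band 4.1 family, was in 7 of 8 and 3 of 3 oocytes, at 0 to 95.7 CPM (median 39.6) in primary and 199, 102 and 145 CPM in transitioning oocytes, a log2 ratio of -1.77 (-2.63 to -0.90). These 2 genes had 22 and 27 counts in all primary oocytes together, so each turned on few reads per cell.

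Eif2a (chr3:58525821-58557501), an initiation factor that can bring methionyl-tRNA to the ribosome, was in 6 of 8 primary and 3 of 3 transitioning oocytes, at 0 to 69.9 CPM (median 22.6) in primary and 76.4, 102 and 145 CPM in transitioning oocytes, a log2 ratio of -1.66 (-2.71 to -0.58). Tuba3b (chr6:145615757-145621479), an alpha-tubulin, was in 3 of 8 and 3 of 3 oocytes, at 0 to 35.4 CPM (median 0) in primary and 127, 51.1 and 47.5 CPM in transitioning oocytes. Its log2 ratio of -2.85 (-4.42 to -1.41) is uncertain, since Tuba3b has a near-identical copy, Tuba3a, between which reads can be split, and its estimated counts of 7.02 and 12.64 are not whole. The copy Tuba3a was at 0 to 143 CPM (median 63.1) in primary and 515, 102 and 206 CPM in transitioning oocytes. How reads were split between the copies was not tested.

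The last 2 lower genes have clone names. RP23-199B10.2 was carried by 5 of 8 primary and 3 of 3 transitioning oocytes, at 0 to 72.1 CPM (median 30.9) in primary and 88.4, 129 and 109 CPM in transitioning oocytes, a log2 ratio of -1.66 (-2.67 to -0.63). RP24-491I24.3 was carried by all 3 transitioning oocytes, at 306, 358 and 474 CPM, and by 1 of 8 primary oocytes, replicate 15, at 278 CPM. Its log2 ratio was -2.48 (-3.11 to -1.86), and against the 7 primary oocytes without a read it was a bound of at most -5.79.

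**Figure D4:**
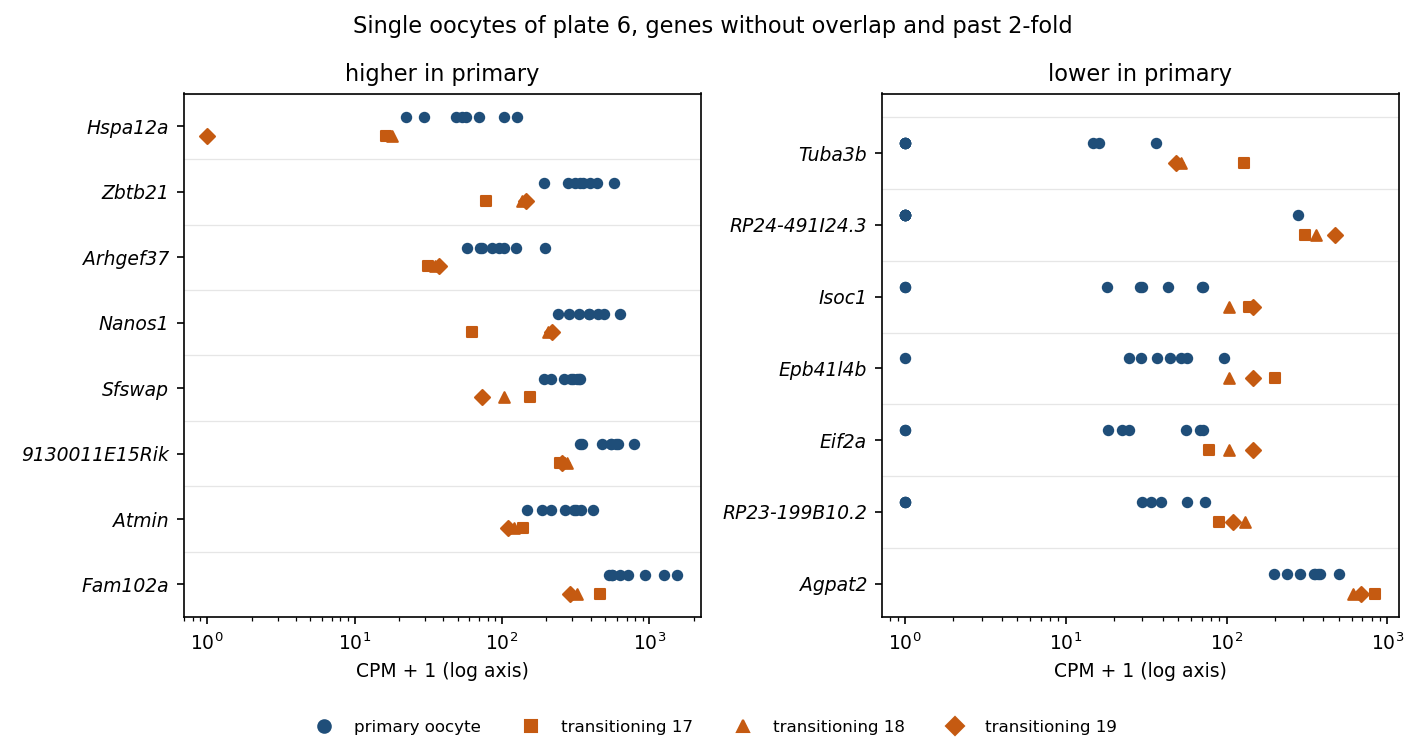
Levels of the 15 genes past 2-fold without overlap between the stages in single oocytes, as CPM + 1 on a log axis, with primary oocytes as circles and transitioning oocytes 17, 18 and 19 as squares, triangles and diamonds. The 8 genes of the left panel are higher and the 7 of the right panel lower in every primary oocyte, and a point at 1 is an oocyte with no read, as in 7 of 8 primary oocytes for RP24-491I24.3.

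The genes without overlap but under 2-fold included abundant ones. Hyou1 among them, Mif and the genes given for oocyte 17 were named after their values were seen. Usp9x, an X-linked deubiquitinase carried by all 11 oocytes, was at 4807 to 7756 CPM (median 6108) in primary and 4220, 3850 and 2585 CPM in transitioning oocytes, a log2 ratio of 0.80 (0.67 to 0.92). Hyou1, a chaperone of the endoplasmic reticulum in all 11 as well, was at 1307 to 2170 CPM (median 1635) in primary and 1223, 938 and 1197 CPM in transitioning oocytes, with a log2 ratio of 0.53 (0.29 to 0.77). Atl3, an atlastin that shapes the endoplasmic reticulum, was also in all 11, at 571 to 938 CPM (median 782) in primary and 321, 546 and 508 CPM in transitioning oocytes, a log2 ratio of 0.86 (0.49 to 1.25).

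The counts of list members below stand beside 6.27% higher and 8.57% lower among all compared genes. Genes of egg coat and growth factors had a median near that of all genes. Of 16 members 8 had values and were compared, none was past 2-fold higher, 1 was past 2-fold lower, and the median log2 ratio was 0.07, beside -0.01 over the 3097 genes with at least 5 CPM in a stage. The lower one, Oosp2, an oocyte-secreted protein, had reads in 5 of 8 primary and 2 of 3 transitioning oocytes, at 0 to 50.1 CPM in primary and 91.7, 34.1 and 0 CPM in transitioning oocytes, and its log2 ratio of -1.30 had an interval of -2.68 to 0.18 and was -0.11 without oocyte 17. Its neighbour Oosp1, in all 11 oocytes, was at 83.9 to 516 CPM in primary and 91.7, 273 and 290.2 CPM in transitioning oocytes (log2 ratio 0.44, interval -0.13 to 1.05, and -0.05 without oocyte 17). The list took 7.36% to 10.22% of the counts of a primary oocyte, and 9.31%, 9.39% and 9.08% in transitioning oocytes.

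The transcription factors of early oocyte growth were spread in both directions. Of 16, 8 had values and 6 were compared, with 1 higher, 1 lower and a median of 0.47 (0.96 without oocyte 17). Sohlh1 (chr2:25842995-25847248), a factor of primordial oocytes that is needed for early follicle development, was carried by all 11 oocytes, at 28.01 to 678 CPM (median 280.0) in primary and at 1774, 17.05 and 399 CPM in transitioning oocytes. Transitioning oocyte 17 was thus the highest and oocyte 18 the lowest of all cells, and the log2 ratio of -1.27 (-1.60 to -0.94) turned to 1.33 without oocyte 17. In the secondary oocytes Sohlh1 was at 27.8 and 0 CPM.

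Its partner Sohlh2 had reads in 8 of 8 primary oocytes (14.0 to 252 CPM, median 84.9) and in 1 of 3 transitioning oocytes, again oocyte 17, at 107 CPM, a log2 ratio of 0.84 (-0.31 to 2.22). Tcf12, an E protein that pairs with basic helix-loop-helix factors, was in all 11 oocytes, at 154 to 547 CPM (median 415) in primary and 168, 222 and 109 CPM in transitioning oocytes, a log2 ratio of 1.15 (0.57 to 1.78). Nr6a1, the germ cell nuclear factor, was in all 11 at 280.1 to 795 CPM (median 441) in primary and 259.9, 307 and 254 CPM in transitioning oocytes, a log2 ratio of 0.89 (0.42 to 1.39). Taf4b, a subunit of an oocyte form of the general transcription machinery, overlapped widely, at 638 to 1436 CPM in primary and 581, 1568 and 762 CPM in transitioning oocytes (log2 ratio 0.10, all 11 oocytes, and -0.30 without oocyte 17).

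In the maternal effect genes oocyte 17 stood apart again. Of 16 genes of the subcortical maternal complex and its lattice, 2 had values. Ooep, in all 11 oocytes with the values given above, had a log2 ratio of -0.67 (-0.79 to -0.55), and of 0.38 without oocyte 17. Nlrp4a (chr7:26435113-26476142), an oocyte gene of the NLRP family carried by all 11, was at 504 to 1352 CPM (median 1028) in primary and 61.2, 834 and 726 CPM in transitioning oocytes, a log2 ratio of 1.12 (0.77 to 1.49) that was 0.39 without oocyte 17 and 2.02 without oocyte 18. The secondary oocytes were above all of them at 3070 and 2146 CPM. Of 7 genes of the NLRP family with values only Nlrp4a was compared.

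Genes that store maternal RNA and control its translation moved with the choice of transitioning oocytes. All 9 with values, of 31, were compared, none was past 2-fold, 5 were above and 4 below a ratio of 1, and the median log2 ratio was 0.04, but -0.30 without oocyte 17 and 0.47 without oocyte 18. The members ran from Lsm14a, a protein of RNA granules, at 0.89 to Zfp36l2 at -0.58. Dazl, an RNA-binding protein of germ cells in all 11 oocytes, was at 252 to 916 CPM in primary and 612, 869 and 834 CPM in transitioning oocytes (log2 ratio -0.11). Zfp36l2, which promotes RNA decay, was at 523 to 3573 CPM in primary and 2293, 1330 and 4208 CPM in transitioning oocytes (log2 ratio -0.58, interval -0.76 to -0.40, all 11 oocytes). Patl2, an oocyte translation repressor carried by all 11, was at 364 to 766 CPM in primary and 229, 460.3 and 617 CPM in transitioning oocytes (log2 ratio 0.64, interval 0.24 to 1.06).

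Meiotic genes held few members on this plate. Of 23 genes of meiotic prophase, 4 had values, 2 reached 5 CPM with a ratio and 1 was compared: Syce1, a central element protein of the synaptonemal complex, in 5 of 8 primary (0 to 122 CPM) and 3 of 3 transitioning oocytes (321, 17.05 and 36.3 CPM). Its log2 ratio of -1.77 (-2.63 to -0.90) turned to 0.94 without oocyte 17. Of 30 genes of meiotic arrest and resumption, 9 had values and none of the 7 compared was past 2-fold, with a median of -0.37 (0.46 without oocyte 17). Ccnb2, a B-type cyclin in all 11 oocytes, was at 308 to 668 CPM in primary and 933, 682 and 653 CPM in transitioning oocytes, a log2 ratio of -0.61 (-0.91 to -0.29).

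The Kit, PI3K and mTOR pathway, which controls the activation of primordial follicles, had 14 of 37 members with values. Of the 10 compared none was higher and 1 was lower past 2-fold, and the median was -0.56, or -0.01 without oocyte 17. The lower one, Ddit4, an inhibitor of mTOR, was in 6 of 8 primary (0 to 56.7 CPM) and 3 of 3 transitioning oocytes (61.2, 51.1 and 36.3 CPM), a log2 ratio of -1.09 (-2.42 to 0.35) that was -0.91 without oocyte 17 and -0.72 without primary oocyte 15. Rheb, the GTPase that activates mTOR, was in all 11, at 196 to 509 CPM in primary and 382, 579.6 and 472 CPM in transitioning oocytes (log2 ratio -0.56, interval -0.95 to -0.15). Foxo1, a forkhead factor inhibited by the pathway and carried by all 11, was at 276 to 1009 CPM in primary and 290.5, 358 and 218 CPM in transitioning oocytes (log2 ratio 0.57, interval 0.12 to 1.06). On plate 1 it was lower in primary oocytes, at 30.5 CPM in their sum and 179.7 CPM in the transitioning oocyte, a log2 ratio of -2.56 (-3.15 to -2.001).

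Ribosomal proteins were lower in the primary sum, and the size of the difference depended on oocyte 17. Of 24 ribosomal protein genes with values on the plate 21 were compared, none was past 2-fold higher and 7 were past 2-fold lower (8.57% of all compared genes were), and all 22 with 5 CPM in a stage had a log2 ratio below 0, with a median of -0.73. They made up 0.374% to 0.716% of the counts of a primary oocyte (median 0.437%), against 1.25%, 0.392% and 0.662% in transitioning oocytes 17, 18 and 19, and 0.193% and 0.231% in the secondary oocytes. Oocytes 18 and 19 lay within the primary range, and without oocyte 17 the median of the list was -0.02. Rpl8, of the large subunit and carried by all 11 oocytes, was at 336 to 1007 CPM (median 529.6) in primary and 2033, 546 and 617 CPM in transitioning oocytes, so that its log2 ratio of -1.05 (-1.31 to -0.78) became 0.03 without oocyte 17. Rps3a1, of the small subunit and in all 11, was at 269 to 685 CPM (median 403) in primary and 1440, 473 and 653 CPM in transitioning oocytes (log2 ratio -1.10, interval -1.40 to -0.79, and -0.30 without oocyte 17). Other members kept a ratio below 0 with any 1 oocyte left out: Rpl30, in 5 of 8 primary (0 to 44.5 CPM) and 3 of 3 transitioning oocytes (81.8, 17.05 and 145 CPM), had a log2 ratio of -1.99 (-3.38 to -0.60), or -1.76 without oocyte 17. Rps9, in all 11, was at 136 to 322 CPM in primary and 374, 254 and 363 CPM in transitioning oocytes, a log2 ratio of -0.77 (-1.26 to -0.26), or -0.60 without oocyte 17. Both were picked as exceptions after their values were seen. Ribosomal protein genes have many processed copies in the genome, so reads may be split among them.

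The nuclear genes of the respiratory chain took their highest share of counts in oocyte 17 as well. Of 74 genes 27 had values, 23 were compared and none was past 2-fold, but 21 of 27 ratios were below 0 and the median was -0.43. Their share of counts was 0.302% to 0.573% in primary oocytes (median 0.386%), against 0.655%, 0.379% and 0.428% in transitioning oocytes 17, 18 and 19, and the median was 0.03 without oocyte 17. Cox6a1, a subunit of cytochrome c oxidase in all 11 oocytes, was at 84.0 to 322 CPM in primary and 459, 205 and 472 CPM in transitioning oocytes, a log2 ratio of -0.82 (-1.28 to -0.33). Among the transitioning oocytes Cox6a1 was thus highest in oocyte 19, as was Atp5g3, a subunit of ATP synthase, at 183, 119 and 327 CPM.

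Transcripts of the mitochondrial genome went the other way in transitioning oocyte 17. Of 13 with values, 5 were compared and none was past 2-fold, and the median over the 8 with 5 CPM was 0.70. Their share of counts was 0.232% to 0.974% in primary (median 0.293%), with primary oocyte 15 at the top, against 0.130%, 0.467% and 0.515% in transitioning oocytes. The median was 0.11 without transitioning oocyte 17 and 0.04 without primary oocyte 15, so 1 cell of either stage decided it. mt-Co1, which encodes a catalytic subunit of cytochrome c oxidase and was in all 11 oocytes, was at 763 to 2843 CPM (median 1008) in primary and 290.5, 1432 and 1450 CPM in transitioning oocytes (log2 ratio 0.57, interval 0.32 to 0.84). It was -0.04 without transitioning oocyte 17, 0.04 without primary oocyte 15 and -1.37 on plate 1.

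**Figure D5:**
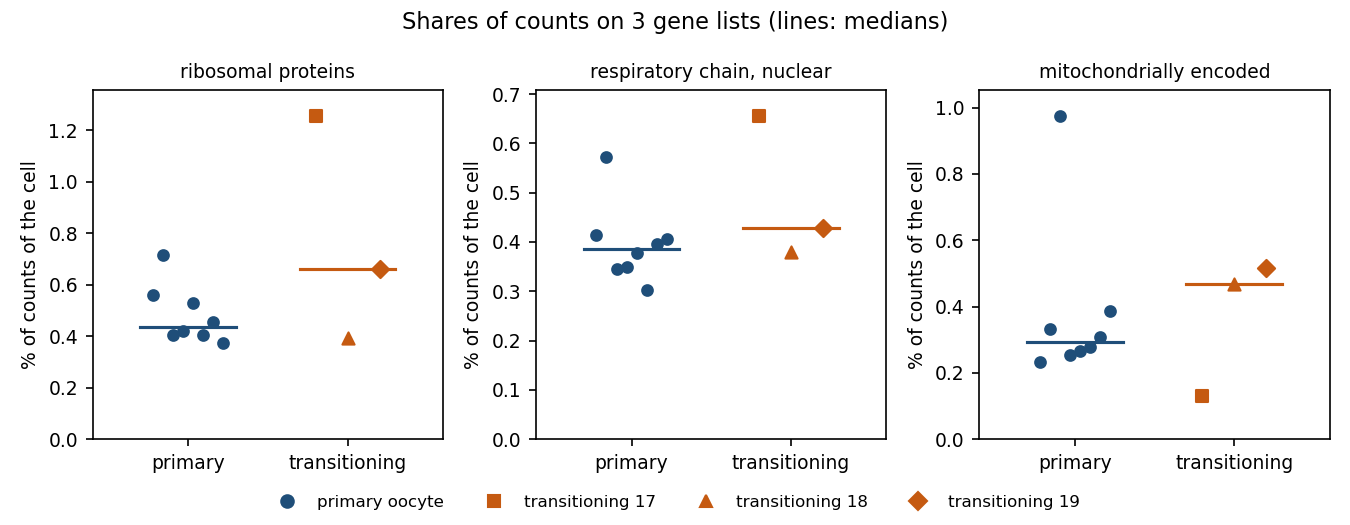
Share of each oocyte's counts, in percent, on ribosomal protein genes, nuclear genes of the respiratory chain and mitochondrially encoded genes, with lines at the medians. Transitioning oocyte 17 (square) is highest in the first 2 panels, at 1.25% and 0.655%, and lowest in the third, at 0.130%, where primary oocyte 15 stands at 0.974%.

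Contacts with the granulosa cells and the cytoskeleton showed few differences. Of 25 genes of gap junctions and adhesion 7 had values, 6 were compared and 1 was past 2-fold higher: Gjb2, a connexin in 7 of 8 primary (0 to 340.3 CPM, median 105) and 3 of 3 transitioning oocytes (15.3, 51.1 and 181 CPM), with a log2 ratio of 1.44 (0.46 to 2.62), or 0.80 without oocyte 17. Gja4, the connexin of the junctions between oocyte and granulosa cells, was in all 11 at 2773 to 4267 CPM in primary and 3532, 3426 and 2177 CPM in transitioning oocytes, a log2 ratio of 0.15 (0.01 to 0.29). Of 36 genes of microtubules and spindle 7 had values and were compared, and only Kif3b, a kinesin in 8 of 8 and 2 of 3 oocytes, was past 2-fold (log2 ratio 1.13, interval -0.35 to 3.08, 35 counts against 4), and its ratio was 0.73 without oocyte 17 and 0.84 without oocyte 19. Tubb4b, a beta-tubulin in all 11, was at 4686 to 7588 CPM in primary and 5816, 6720 and 5471 CPM in transitioning oocytes (log2 ratio 0.03).

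In autophagy, 6 of 30 genes had values and 4 were compared. Vps18, of the vacuole fusion complexes and carried by 8 of 8 primary and 2 of 3 transitioning oocytes, was past 2-fold higher with a log2 ratio of 1.37 (-0.31 to 3.72) from 31 counts against 3, and 0.55 without oocyte 17. Atg13, a subunit of the kinase complex that starts autophagy and in all 11 oocytes, was past 2-fold lower, at 95.1 to 308 CPM (median 149.7) in primary and 764, 153 and 181 CPM in transitioning oocytes, and its log2 ratio of -1.33 (-1.79 to -0.85) became 0.05 without oocyte 17. None of the compared genes was past 2-fold for ubiquitin and proteasome (8 compared, median -0.15), translation factors (7, -0.24), the endoplasmic reticulum and Golgi (4, 0.27), nuclear transport (3, -0.14), DNA methylation and chromatin (3, 0.04) or the Oas1 and Khdc1 families (4, -0.10). With TMM factors the medians of nuclear transport (0.00282) and of the Oas1 and Khdc1 families (0.0408) were above 0, and without oocyte 17 those of ubiquitin and proteasome (0.27) and of translation factors (0.05) were.

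Histones had 76 genes with values, of which 39 were at 0 in all oocytes and 6 were compared. Hist1h1a, a linker histone in 7 of 8 primary (0 to 122 CPM) and 1 of 3 transitioning oocytes (0, 17.05 and 0 CPM), was past 2-fold higher, with a log2 ratio of 2.95 (0.37 to 8.30) from 31 counts against 1. Without oocyte 18, which held that count, the ratio was a bound of at least 0.66, set by the floor of 3 counts. Hist1h2bc was past 2-fold lower with a log2 ratio of -1.09 (-2.42 to 0.35), in 6 of 8 and 2 of 3 oocytes, and was -0.91 without oocyte 17 and -0.80 without oocyte 18. Of 31 immediate early and heat shock genes 15 had values, 2 were compared and neither was past 2-fold. Hsp90ab1, a cytosolic chaperone in all 11 oocytes, was at 3162 to 5965 CPM in primary and 7232, 5268 and 4499 CPM in transitioning oocytes (log2 ratio -0.24, and 0.01 without oocyte 17). None of the 12 genes that the study named in transitioning oocytes had values on this plate.

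Plate 1 gave a second look at the same stages, with 7 primary oocytes of 5440 to 801258 counts (median 79203) and a single transitioning oocyte of 584277 counts. Its ratio rests on that 1 cell, and plate 6 genes without values there could not be looked up. Of the 128 higher genes 57 had a ratio on plate 1 and 31 of them (54.4%) were above 0, with a median of 0.10. Of the 175 lower genes 85 had one and 59 (69.4%) were above 0 as well, with a median of 0.66. Over all compared genes 566 of 881 (64.2%) were above 0, with a median of 0.43.

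Of the 15 genes without overlap, 9 had a ratio on plate 1. The log2 ratio of 9130011E15Rik was above 0 there too (0.97), and those of Tuba3b (-1.002) and RP23-199B10.2 (-0.13) were below 0 on both plates. Nanos1 was at 29.6 CPM in the primary sum and 59.9 CPM in the transitioning oocyte of plate 1, the opposite order to plate 6 (-1.02), as were Arhgef37 (-1.15), Atmin (-1.02), Hspa12a (-0.0156), Isoc1 (0.20) and RP24-491I24.3 (at least 3.29). For RP24-491I24.3 the bound sets the primary sum of plate 1, 50.3 CPM, against the floor of 3 counts in the transitioning oocyte. The counting intervals of Tuba3b, RP23-199B10.2, Hspa12a and Isoc1 on plate 1 included a ratio of 1.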

How the data were processed

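Single cells were lysed in plates, and cDNA was made by SMART-Seq2, fragmented with Nextera XT and sequenced on a NextSeq 550. The authors aligned the reads to GRCm38 with pipeline scripts of the Terra platform, and the submitters' processing notes name Seurat 4. The counting tool is not given in the sources used here. The authors deposited 1 table of estimated counts per gene (10.6% of the values above 0 on plate 6 are not whole) and a metadata table whose read shares are fractions. Their own analysis left out cells under 500 genes, and oocytes that scored high for genes of somatic cells. Of 25149 rows, 16373 had values on plate 6 after 10 rows with calendar dates for gene names (0.00712% of counts) were dropped, and 13266 genes were listed on every plate. The counts of 184 somatic cells were not used. Gene positions come from GENCODE M 21, in which 11315 of the 16373 names matched once.

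From these, counts were summed over the oocytes of a stage and scaled to CPM. A log2 ratio carries the exact 95% interval of the split of its counts, which covers counting error only. A stage with under 1 count was set to a floor of 3 counts, and no ratio is given where both stages are at or under 3. Genes entered with 50 CPM in a stage and reads in 50% of its cells, and a difference of at least 2-fold was the threshold. Medians of lists cover members with 5 CPM in a stage. The genes described are the markers, the members of the gene lists, up to 15 in each direction past 2-fold by summed counts and by mean CPM with no overlap of single cells (clone names described apart), and genes the study names for oocytes. Members and lists were chosen with earlier results of these data known. The interval and ratio code was tested on simulated data. Python 3.11.15, numpy 2.4.6, pandas 2.3.3 and scipy 1.17.1 were used, and edgeR 4.0.16 and DESeq2 1.42.0 gave scaling factors for 2 alternatives only. The alternatives were mean CPM, those factors, totals over genes listed on every plate or without clone names, thinned cells, other minimums, each oocyte left out, and plate 1. Some genes are not reported here.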

Additional observations from a re-analysis of the deposited data

Results flagged for a closer look

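In 87 groups of values over the 8 primary oocytes (levels of described genes and shares of gene lists), 11 had a highest oocyte far from the rest, where chance gives about 1 in 20 separate groups. These groups are not separate, since they are read from the same 8 cells.

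Primary oocyte 15 accounted for 5 of these. It had 2843 CPM of mt-Co1 (nearest oocyte 1205 CPM), 2693 CPM of mt-Nd5 (1181 CPM) and 3122 CPM of mt-Cytb (1091 CPM), all of the mitochondrial genome, and mitochondrially encoded genes took 0.974% of its counts (nearest 0.387%). It also had 4082 CPM of Sec61a1, a subunit of the channel into the endoplasmic reticulum, against 2509 CPM in the nearest.

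Primary oocyte 14 had 266 CPM of Sesn2, a stress-induced inhibitor of mTOR (nearest 142 CPM), 196 CPM of Vps18 (nearest 70.9 CPM), and a share of 0.573% on the nuclear genes of the respiratory chain (nearest 0.415%). Primary oocyte 18 had 1289 CPM of Wee1, a kinase that holds the cell cycle kinase inactive, against 547 CPM in the nearest. Primary oocyte 16 had 1009 CPM of Foxo1 (nearest 549 CPM), and primary oocyte 20 had 2023 CPM of H3f3b, which encodes histone H3.3 (nearest 1498 CPM).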

How the results depend on the processing

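No paired analysis was possible because the values come from no test and the replicate numbers of the labels only name cells. The 128 higher genes were 255 with totals over genes listed on every plate, 296 with no minimum and 285 with a minimum of 10 CPM, and 135 to 240 with 1 oocyte left out. The 175 lower genes were 270, 411 and 327 under those settings and 132 to 368 with 1 oocyte left out. The 8 higher genes without overlap were 17 with TMM factors, 15 with median-of-ratios factors and 3 in thinned cells, and 8 to 47 with 1 oocyte left out. The 8 lower ones were 3, 4, 14 (every plate), 13 (no minimum) and 13 (10 CPM), and 9 to 85 with 1 oocyte left out. Fewer cells overlap less, so these 2 counts grow by construction: without transitioning oocytes 17, 18 and 19 they were 35, 47 and 31 higher and 19, 85 and 30 lower, without primary oocytes 14, 16 and 18 they were 19, 15 and 15 higher, and without primary oocytes 14 and 19 they were 13 and 15 lower. TMM factors moved every ratio by 0.14, and the share of higher genes among those past 2-fold was 42.2%, against 58.9% with TMM factors, 58.2% with median-of-ratios factors and 63.1% without oocyte 17.

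The median of ribosomal proteins ranged over -1.05 to -0.0234 and that of the respiratory chain over -0.657 to 0.034 with 1 oocyte left out. With 1 oocyte left out, Sohlh1 ranged over -1.97 to 1.33, Syce1 over -2.82 to 0.94, Atg13 over -1.82 to 0.0503 and Rpl8 over -1.48 to 0.0299, and each turned only without transitioning oocyte 17. Of the described genes past 2-fold, the direction on plate 1 was opposite for Hspa12a (-0.0156), Arhgef37 (-1.15), Nanos1 (-1.02), Atmin (-1.02), Fam177a (-0.70), RP24-491I24.3 (3.29, a bound), Isoc1 (0.196), Sohlh1 (1.04), Syce1 (5.84), Rpl8 (0.713), Rps3a1 (0.231), Hist1h2bc (0.537), Jun (1.57, a bound) and Inha (0.207, a bound). Of those under 2-fold it was opposite for Foxo1 (-2.56), mt-Co1 (-1.37), Ccnb2 (1.46), Dazl (1.89) and Gja4 (-0.113) among others. Also among those under 2-fold, it was the same for Atl3 (1.98), Patl2 (1.16), Bmp15 (0.975), Sohlh2 (2.17), Ooep (-0.582) and Zfp36l2 (-0.933) among others. The counting intervals of Hspa12a, Isoc1, Rps3a1, Hist1h2bc, Jun, Inha and Gja4 on plate 1 included a ratio of 1. Over all compared genes the median log2 ratio there was 0.43. The cause was not tested. At this depth a transitioning level under 50 CPM rests on fewer than 7.58 counts.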

Other observations

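The genes that set transitioning oocyte 17 apart were looked up in the primordial oocytes of plate 1. The other transitioning oocytes carry the same stage label, and no such lookup is given for them. The genes were picked by the values of oocyte 17 itself, so its nearness to the primordial stage was not tested. Of the 60 genes in which it was above all others, 30 had a ratio of 5 primordial over 7 primary oocytes on plate 1, and 24 of these were above 0, with a median log2 ratio of 0.84. Of the 50 genes in which it was below all others 25 had one, and 13 were above 0, with a median of 0.01. Over all compared genes 525 of 879 were above 0, with a median of 0.28. These are descriptions of pooled counts and carry no test.

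Another gene above all others in oocyte 17 was Lmf1, which encodes a protein that matures lipases, at 627 CPM, against 17.05 and 36.3 CPM in transitioning oocytes 18 and 19 and 0 to 95.7 CPM in primary oocytes. Vps72, a subunit of chromatin complexes, was at 1682 CPM in oocyte 17, against 528 and 653 CPM in the other transitioning oocytes and 392 to 702 CPM in primary oocytes. Arih2, a ubiquitin ligase, was at 2101 CPM in oocyte 17, against 665 and 399 CPM in the other transitioning oocytes and 538 to 1035 CPM in primary oocytes.

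Clone-named genes took 14.5% to 19.6% of the counts of a primary oocyte, against 11.9%, 20.4% and 19.9% in transitioning oocytes 17, 18 and 19, and 29.9% and 30.2% in the 2 secondary oocytes of the plate.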
